A study of Saccharomyces cerevisiae with 28 samples.

Results

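The sam1 strain was compared with BY4741 across all genes. The members of the comparison are the 8 of 28 libraries whose genotype label reads sam1 or by4741, which are 4 libraries of sam1 and 4 of BY4741, and the table holds 7125 genes. Each strain was grown as 2 cultures, numbered 1 and 3 for sam1 and 2 and 3 for BY4741 in the labels, and each RNA extract gave 2 libraries. The study sequenced RNA from mutants of the subunits of SESAME, a yeast complex of metabolic enzymes that modifies histones, and from their wild-type strains, and the ser33 and shm2 mutants share the BY4741 cultures used here.

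BY4741 is a laboratory strain of Saccharomyces cerevisiae of mating type a that carries deletions of LEU2, MET17 and URA3 and a partial deletion inside HIS3. The label of the mutant reads only sam1, without an allele or a marker, and the comparison below treats it as the BY4741 strain with a change at SAM1. Cells of both strains were grown in YPD, a rich medium with glucose, yeast extract and peptone, and were collected at an OD600, the optical density that measures cell number, between 0.7 and 1.0. Libraries were stranded and made after removal of ribosomal RNA. The 2 libraries of a culture come from the same RNA and are not separate cultures, so every test below has n = 2 cultures a strain. Nothing in the labels says whether the cultures were grown on the same day. A p-value over so few cultures measures only the spread between them. Depth, recovered from the RPKM steps, was 9610000 to 17550000 reads per library in sam1 and 13950000 to 36520000 reads in BY4741.

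SAM1 and its close relative SAM2 encode the S-adenosylmethionine synthetases, which make S-adenosylmethionine (SAM) from methionine and ATP. SAM gives its methyl group to histones, phospholipids, RNA and many other molecules, and the homocysteine that remains is turned back into methionine by the methyl cycle. In yeast the genes that reduce sulfate and build homocysteine are switched on by the activator Met4 with its partners Cbf1, Met31 and Met32 when sulfur metabolites run low, and are held down when these metabolites are plentiful.

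Values are reads per kilobase of gene, scaled to the reads of the library (RPKM), and differences are sam1 minus BY4741 on log2(RPKM + 1), which understates the change of genes with low values. Each gene was tested with limma in a model that also held the ser33 and shm2 cultures, and a gene is called where its adjusted p, over all 7125 genes, was under 0.05. In this fit 570 genes were called higher and 591 lower in sam1, which is 8.0% and 8.29% of all genes, or 16.3% together. The calls sit close to the threshold: the lowest adjusted p was 0.00336 and the median of the called genes was 0.0424. With BY4741 and sam1 alone in the model 0 genes were called, although 2336 had an unadjusted p under 0.05, and 0 were called without BY4741 culture 2, without BY4741 culture 3 or without sam1 culture 3. Both sam1 cultures lay above both BY4741 cultures for 31.0% of genes and below both for 35.0%, or 66.1% together. The direction of a difference is therefore given below with the value of each culture.

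The BY4741 cultures also differed from each other. The median absolute difference over all genes was 0.39 between the strains, 0.23 between the sam1 cultures and 0.21 between the BY4741 cultures, on the log2 scale. For 2083 of 7125 genes the gap between the BY4741 cultures was larger than the difference between the strains. Of the 570 genes called higher in sam1, 418 were also higher in BY4741 culture 3 than in culture 2, a direction seen in 3154 of all genes. Of the 591 called lower, 475 were lower in BY4741 culture 3 than in culture 2, which was the case for 3833 of all genes. BY4741 culture 3 thus lay on the sam1 side of culture 2 for most called genes. Each pathway is accordingly given with its median difference between the strains and its median gap between the BY4741 cultures (culture 2 minus culture 3). Over all genes these medians were -0.03 and 0.02. The gaps depend on the scale: relative to ACT1, the actin gene, which itself had a BY4741 gap of -0.63, the median gap over all genes was 0.59, and each gap below is to be read against the gap of all genes. The median difference between the strains moved by less, to 0.00 over all genes relative to ACT1.

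**Figure D1:**
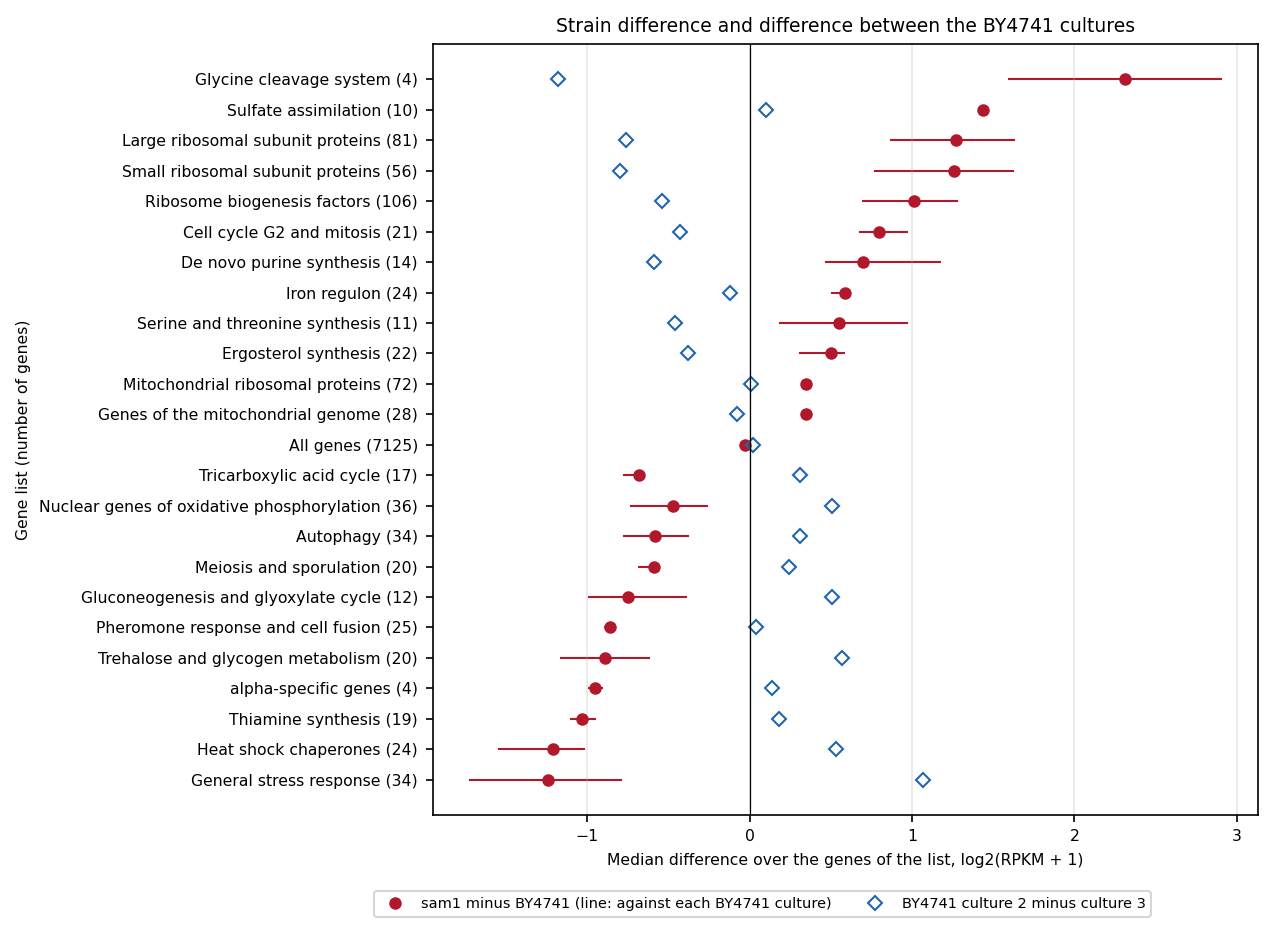
Median difference over the genes of each list on log2(RPKM + 1), for sam1 minus BY4741 (filled circles) and for BY4741 culture 2 minus culture 3 (open diamonds). The red line joins the medians against BY4741 culture 2 alone and culture 3 alone. Sulfate assimilation at 1.44 and the pheromone genes at -0.86 have diamonds near 0, while the ribosomal proteins at 1.27 and 1.26 and the stress genes at -1.24 have diamonds on the opposite side of 0.

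The gene named by the label was checked first. SAM1 lies on chrXII:515262-516410, plus strand, in the RefSeq R64 annotation. Its libraries held 0.06, 0.362, 0.348 and 0.248 RPKM in sam1, which is 1, 4, 6 and 5 reads, against 28.9, 39.5, 77.2 and 99.3 RPKM in BY4741. All sam1 libraries thus lay far below all BY4741 libraries, and the difference was -5.47 ± 0.48 (SE, limma adjusted p = 0.0198). SAM1 itself differed between the BY4741 cultures, with 34.2 RPKM in culture 2 and 88.2 RPKM in culture 3. MET17, LEU2 and URA3 stayed at or below 0.537 RPKM in all 8 libraries, and all 3 are deleted in both strains. HIS3, of which the known allele of this strain leaves part of the gene in place, was read at 52.2 and 63.2 RPKM in sam1 and at 47.9 and 56.2 RPKM in BY4741, so these values do not check its deletion. Among the neighbours of SAM1, TFS1, YLR179C and VTA1 were not called, with differences of -1.11, 0.99 and 0.00, and SWI6, a cell cycle transcription factor, was lower by -0.51 (adjusted p = 0.0409).

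The remaining SAM synthetase rose. SAM2 measured 70.7 and 101 RPKM in the libraries of sam1 culture 1 and 93.6 and 123 RPKM in those of culture 3, against 40.0 and 47.8 RPKM in BY4741 culture 2 and 34.9 and 46.2 RPKM in culture 3. The groups did not overlap, and the difference was 1.16 ± 0.20 (SE, adjusted p = 0.0370) with a gap of only 0.12 between the BY4741 cultures. MET6, the methionine synthase that closes the methyl cycle, averaged 703 ± 22.5 RPKM in sam1 and 257 ± 71.5 RPKM in BY4741 (SD, n = 2 cultures each), a difference of 1.46 (adjusted p = 0.0351). The other members of the cycle were not called. SAH1, which splits S-adenosylhomocysteine, had 409 and 313 RPKM in sam1 and 223 and 485 RPKM in BY4741. ADO1, the adenosine kinase, and SAM4, a homocysteine methyltransferase, differed by 0.16 and 0.03, and their cultures also overlapped. MHT1, which makes methionine from S-methylmethionine, was low, with 9.48 and 13.3 RPKM in sam1 and 9.70 and 6.54 RPKM in BY4741. In all, 2 of the 7 genes of the cycle passed the test upward and 1, SAM1 itself, downward.

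Sulfate assimilation was the pathway with the highest median among those with little gap between the BY4741 cultures. Of its 10 genes 6 were called higher and 0 lower, against 8.0% and 8.29% of all genes. The median difference was 1.44, the BY4741 gap 0.10, and the median was 1.44 against BY4741 culture 2 and 1.45 against culture 3. SUL2, the main sulfate permease, measured 65.1, 73.0, 113 and 133 RPKM in the sam1 libraries, against 5.74, 6.24, 4.44 and 4.74 RPKM in BY4741. This difference of 3.89 ± 0.30 (SE, adjusted p = 0.0138) was among the 10 largest rises of the table, with every sam1 library above every BY4741 library. MET14 (adenylylsulfate kinase) had 59.0 and 165 RPKM in the sam1 cultures and 16.0 and 16.4 RPKM in BY4741, and MET3 (ATP sulfurylase) had 75.2 and 162 RPKM against 21.2 and 26.0 RPKM. MET10 and MET5, the subunits of sulfite reductase, rose by 1.56 and 1.09, and MET22, which removes the bisphosphate left over by the pathway, by 1.33.

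The remaining members of the pathway were above BY4741 in both cultures or overlapped. MET16, the reductase of the activated sulfate, had 20.6 and 46.7 RPKM in sam1 and 14.2 and 12.0 RPKM in BY4741, a difference of 1.18 that was not called (adjusted p = 0.0707). SUL1, the other sulfate permease, had 1.8 and 9.21 RPKM in sam1 and 0.794 and 0.643 RPKM in BY4741 (adjusted p = 0.0849), and MET8, which makes the siroheme of sulfite reductase, differed by 1.16 (adjusted p = 0.0548). MET1, which acts with MET8, overlapped, with 23.8 and 24.5 RPKM in sam1 and 29.1 and 23.3 RPKM in BY4741. The spread lay on the sam1 side here: the median of sam1 culture 1 minus culture 3 was -0.67, and MET14, MET3 and SUL2 were all higher in culture 3.

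The promoter of MET10 is shown as an example of a motif found in part of this pathway. MET10 had 153 and 139 RPKM in sam1 and 47.8 and 49.8 RPKM in BY4741. The window runs from 250 bases before the start of the gene to 50 bases after it, chrVI:213062-213361 on the plus strand of R64, and capitals mark CACGTG, the sequence known to be bound by Cbf1 and also by Pho4.
MET10: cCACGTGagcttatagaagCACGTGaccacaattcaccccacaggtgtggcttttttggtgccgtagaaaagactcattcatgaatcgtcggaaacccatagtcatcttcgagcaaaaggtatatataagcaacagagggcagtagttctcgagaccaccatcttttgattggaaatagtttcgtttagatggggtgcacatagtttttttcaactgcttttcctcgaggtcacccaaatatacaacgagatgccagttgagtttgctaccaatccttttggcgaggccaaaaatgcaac
CACGTG is its own reverse complement and was found in 5 of 10 promoters of the pathway, against 2.90% of 5990 promoters in the genome. TGTGGC, the core sequence known for Met31 and Met32, was found on either strand in 4 of 10, against 7.83% of all promoters. These are matches of letters and not measured sites.

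Genes next to the pathway gave a mixed picture. MET2, which activates homoserine for homocysteine synthesis, had 59.4 and 66.3 RPKM in sam1 and 10.2 and 8.24 RPKM in BY4741 (2.65, adjusted p = 0.030). STR3, which turns cystathionine into homocysteine, rose by 1.78 and GSH1, the first enzyme of glutathione synthesis, by 1.05. STR2, which acts before STR3 on the same route from cysteine to homocysteine, fell to 19.7 and 17.3 RPKM in sam1, against 32 and 31.0 RPKM in BY4741. CYS3 and CYS4, the enzymes from homocysteine to cysteine, were not called, and CYS4 ranged from 118 to 279 RPKM between the BY4741 cultures. Of the 8 genes that make homocysteine, cysteine and glutathione, 3 were called higher and 1 lower. Among 6 uptake genes, MMP1, the permease of S-methylmethionine, and MUP1, the high-affinity methionine permease, rose by 1.91 and 1.28. SAM3, the permease of SAM, overlapped between the strains, with 65.7 and 36.2 RPKM in sam1 and 43.2 and 45.7 RPKM in BY4741. Of the 6 genes of the Met4 complex only MET32 was called, at 7.33 and 15 RPKM in sam1 against 3.53 and 2.90 RPKM in BY4741. MET4 itself and MET30, which marks Met4 with ubiquitin, differed by -0.38 and -0.70 and were not called.

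**Figure D2:**
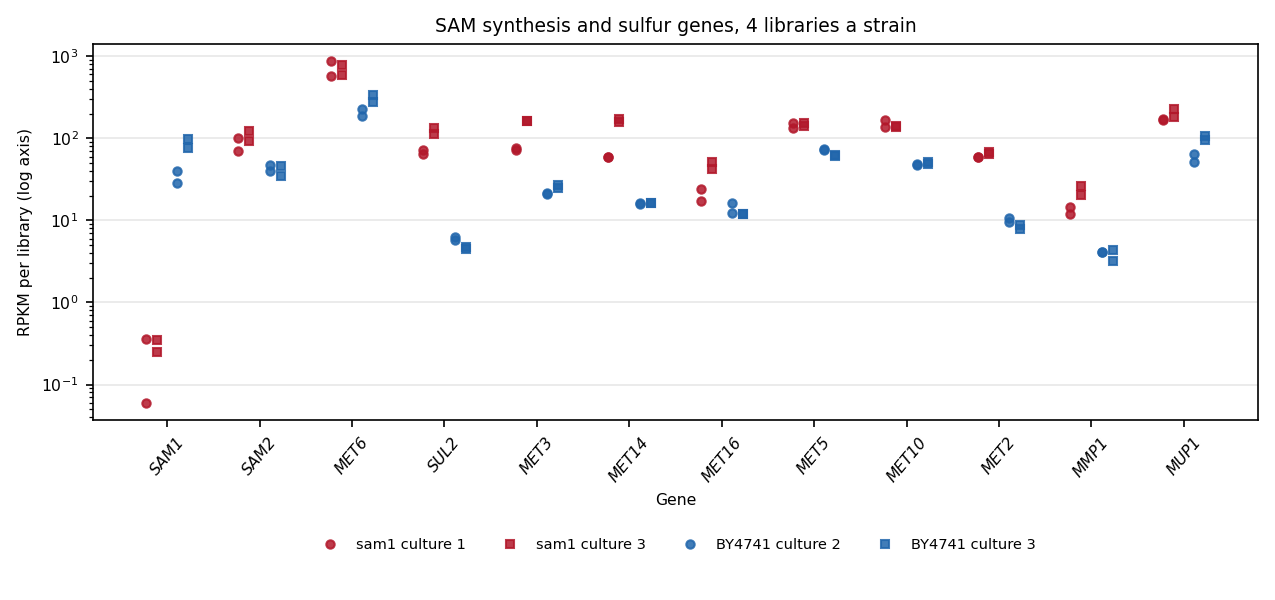
RPKM of SAM1, SAM2 and 10 sulfur genes in each of the 4 sam1 libraries (red) and the 4 BY4741 libraries (blue) on a log axis, with circles and squares for the cultures of each strain. SAM1 is at or below 0.362 RPKM in sam1, and SUL2 is at 65.1 RPKM or above in sam1 against 6.24 RPKM or below in BY4741.

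The same genes were read in the other mutants of the fit. SUL2 measured 3.98 and 4.09 RPKM in the ser33 cultures and 2.40 and 3.5 RPKM in the shm2 cultures, and SAM2 was between 25.8 and 37.3 RPKM in these 4 cultures. The median of the sulfate assimilation genes, relative to the mean of BY4741, was 1.11 and 1.68 in the sam1 cultures, -0.17 and -0.18 in ser33 and -0.61 and -0.11 in shm2. These comparisons share the BY4741 cultures, and the difference between the mutants was not tested.

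Genes of the pheromone response were lower in sam1. Haploid a cells answer the pheromone of alpha cells through the receptor Ste2 and a kinase cascade that ends at the transcription factor Ste12, which switches on genes for agglutination and cell fusion. Of 25 genes of this response, 13 were called lower and 1 higher, against 8.29% and 8.0% of all genes. The median difference was -0.86, with a BY4741 gap of 0.04. FIG1, a membrane protein needed for efficient mating, measured 0.536, 0.464, 0.520 and 0.508 RPKM in the sam1 libraries, from 7, 4, 7 and 8 reads, against 20.3, 20.9, 16.7 and 16.6 RPKM in BY4741. All sam1 libraries lay below all BY4741 libraries by a wide margin, a difference of -3.70 ± 0.16 (SE, adjusted p = 0.00336), the lowest adjusted p in the table. PRM6 had 0.634 and 0.367 RPKM in the sam1 cultures and 13.4 and 11.9 RPKM in BY4741, and PRM1, which acts in the fusion of the mating cells' membranes, had 9.26 and 3.98 RPKM against 60.4 and 51.1 RPKM. The fusion genes FUS2 and FUS1 fell by 2.70 and 1.84, and PRM2 fell to 0.840 and 0.514 RPKM in sam1, against 8.95 and 9.69 RPKM in BY4741. AGA1, the anchor of the agglutinin, and KAR4, a transcription factor of the response, were lower by -1.47 and -1.28.

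Of the genes of the signalling cascade described here, STE20 and KSS1 were called. STE20, the kinase at its head, was the gene of the list called higher, with 75.6 and 79.9 RPKM in sam1 and 51.5 and 53.0 RPKM in BY4741 (0.56, adjusted p = 0.0415). KSS1, a kinase of the cascade that is not in the list and was named after its values were seen, had 28.7 and 36 RPKM in sam1 and 19.7 and 20.7 RPKM in BY4741 (0.65, adjusted p = 0.0446). The G protein subunits GPA1 and STE4, the kinase FUS3 and the arrest factor FAR1 overlapped between the strains. STE12, STE5, STE11 and STE7 were not called, with differences between -0.26 and -0.66. The receptor gene STE2 stood at 527 and 513 RPKM in sam1 and 351 and 372 RPKM in BY4741, and was not called (0.52, adjusted p = 0.0702). STE12, STE5, STE11, STE7, STE4, GPA1, FUS3, FAR1, KAR4, AGA1 and STE2 were named after their values were seen.

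The promoter of PRM1, a gene that fell, is printed because it holds the repeated sequence known to be bound by Ste12. It spans chrXIV:110667-110966 on the plus strand of R64, from 250 bases before the gene to 50 bases into it, and capitals mark TGAAACA, here on the other strand.
PRM1: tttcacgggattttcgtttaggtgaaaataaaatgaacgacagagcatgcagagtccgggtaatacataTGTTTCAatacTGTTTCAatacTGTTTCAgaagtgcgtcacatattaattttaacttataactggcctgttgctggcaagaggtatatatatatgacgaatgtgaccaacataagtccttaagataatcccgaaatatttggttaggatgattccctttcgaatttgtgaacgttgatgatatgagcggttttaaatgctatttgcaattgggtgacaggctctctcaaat
TGAAACA was found on either strand in 13 of 25 promoters of the list, against 7.53% of 5990 promoters. This motif was added to the search after the values had been seen.

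**Figure D3:**
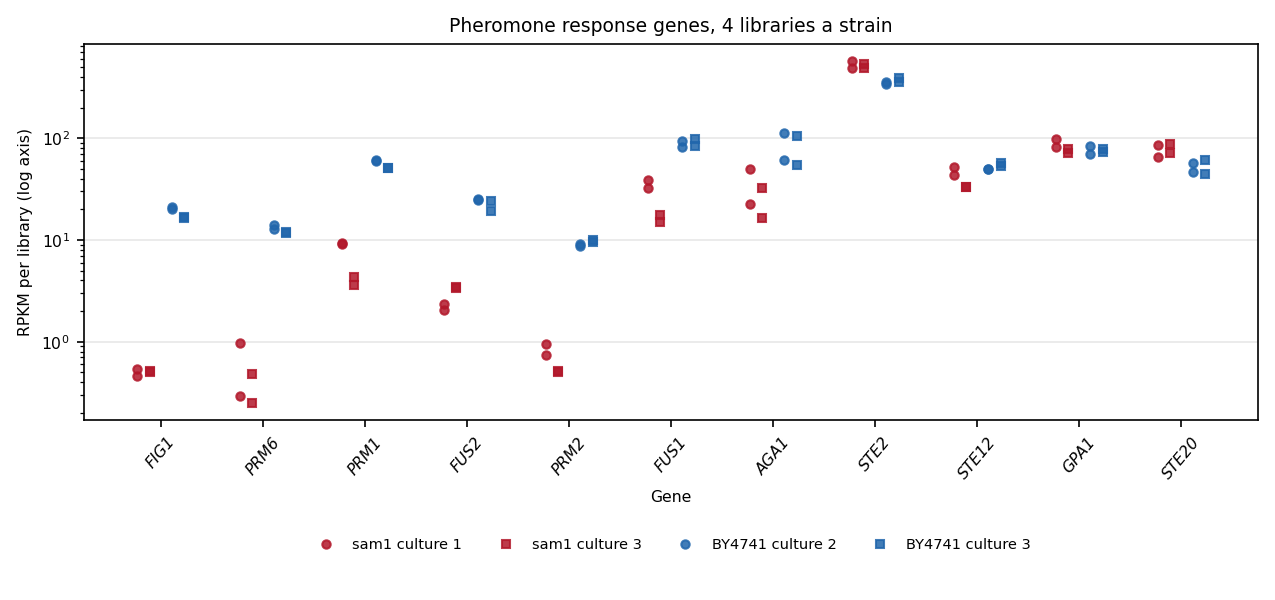
RPKM of 11 pheromone response genes in each of the 4 sam1 libraries (red) and the 4 BY4741 libraries (blue) on a log axis, with circles and squares for the cultures of each strain. FIG1 lies at 0.536 RPKM or below in sam1 and at 16.6 RPKM or above in BY4741, while GPA1 overlaps between the strains.

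Markers of cell type moved with these genes in part. The 4 alpha-specific genes, which are expressed in alpha cells, were all called lower in sam1 at low levels: STE3, the receptor for the pheromone of a cells, had 0.365 and 0.239 RPKM in sam1 and 2.74 and 2.51 RPKM in BY4741. MF(ALPHA)1 had 0.242 and 0.296 RPKM in sam1 and 1.66 and 1.71 RPKM in BY4741, and MF(ALPHA)2 was at or below 0.0785 RPKM in sam1 and 0.746 RPKM in BY4741. SAG1, the agglutinin of alpha cells, had 13 and 10.2 RPKM in sam1 and 22.4 and 19.7 RPKM in BY4741. Of 7 a-specific genes, 3 were called lower: ASG7 (-1.72), AGA2 (-1.38) and the pheromone gene MFA1 (-1.10). The a-specific genes went both ways. In 3 both sam1 cultures lay above both BY4741 cultures and in 4 below, against 31.0% and 35.0% of all genes. STE2, STE6 and MFA2, which mark a cells, were at high levels in both strains and not called, and MFA2 had 1091 and 1124 RPKM in sam1 and 832 and 774 RPKM in BY4741. Whether the alpha markers take part in the difference of the pheromone genes was not tested. In bulk RNA a smaller number of cells and less RNA per cell cannot be told apart.

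FIG1 and the pheromone list were also read in the other mutants. FIG1 had 3.44 and 4.34 RPKM in ser33 and 10.7 and 12.4 RPKM in shm2, and the median of the pheromone list relative to BY4741 was -0.65 and -1.0 in the sam1 cultures, -0.61 and -0.62 in ser33 and -0.47 and -0.40 in shm2. HMRA1, the a1 gene of the silent HMR cassette, which has the sequence of the active mating type gene of a cells, had 105 and 173 RPKM in sam1 and 66.7 and 41.6 RPKM in BY4741 (1.33, adjusted p = 0.0470, named after its values were seen). Reads of this gene and of the MATa locus cannot be told apart.

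Thiamine synthesis genes were lower at low levels. Of 19 genes 12 were called lower and 0 higher, against 8.29% and 8.0% of all genes. Their median was -1.03, with a BY4741 gap of 0.18. THI4, which makes the thiazole part of the vitamin, had 0.194 and 0.910 RPKM in sam1 and 5.86 and 2.97 RPKM in BY4741. THI5 and THI11, near-identical members of the family that makes the pyrimidine part, were lower by -1.35 and -1.47. Reads of such copies could be split between them, and 8 of the 19 genes have a near-identical copy. Among genes of a single copy, THI20 had 9.19 and 9.13 RPKM in sam1 and 22.4 and 20.3 RPKM in BY4741, a difference of -1.14 (adjusted p = 0.0331, named after its values were seen). PHO3, the acid phosphatase that thiamine represses, was not called and differed between the BY4741 cultures by -1.01.

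Part of the mitochondrial ribosomal protein genes were higher, with almost no gap between the BY4741 cultures. Of 72 nuclear genes listed for mitochondrial ribosomal proteins, 25 were called higher and 1 lower, against 8.0% and 8.29% of all genes. Their median was 0.35, with a BY4741 gap of 0.01. MRPL44 had 52.7 and 71.9 RPKM in sam1 and 25.9 and 22.8 RPKM in BY4741, and MRP35 and MRPL20 rose by 1.30 and 1.28. MRP8, the member of the list called lower, had 133 and 108 RPKM in sam1 and 245 and 207 RPKM in BY4741. Whether its product is part of the mitochondrial ribosome was not checked here. The genome of the mitochondrion moved the same way: of 28 genes 6 were called higher and 0 lower, the median was 0.35 and the BY4741 gap -0.08. OLI1, a subunit of the ATP synthase, had 7259 and 8283 RPKM in sam1 and 2168 and 3383 RPKM in BY4741. COX1, COB and ATP6 were not called, with differences of 0.17, 0.28 and 0.37 (named after their values were seen). Q0182 measured 16.2 and 32.5 RPKM in sam1 and 0.534 and 0.288 RPKM in BY4741, and the mitochondrial tRNA genes tL(UAA)Q and tS(UGA)Q2 were likewise among the 10 largest rises. AI5_BETA rose by 2.26, but it overlaps COX1 on the same strand and its reads cannot be told apart from that gene's.

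Single genes of other lists were among the largest or most certain differences. Few members of their lists were called, against 8.0% of all genes called higher and 8.29% lower. TIR1, a cell wall mannoprotein of the cold- and anaerobiosis-induced family, had 114 and 127 RPKM in sam1 and 19.6 and 21.3 RPKM in BY4741 (2.46 ± 0.15 SE, adjusted p = 0.00614), and its relatives DAN1 and TIR4 rose by 3.26 and 1.79. In the same list PAU23 and PAU2 were lower, and 3 of 30 genes were called higher and 2 lower. Of the 30 genes 21 have a near-identical copy. Genes of the retrotransposon Ty3 were lower: YIL082W-A had 7.67 and 5.51 RPKM in sam1 and 33.4 and 27.9 RPKM in BY4741, and YGR109W-B had 6.46 and 4.62 RPKM against 27.3 and 21.9 RPKM. YGR109W-A, which shares its sequence with YGR109W-B, and YIL082W were among the 10 largest falls (-3.25 and -3.13). Of 92 retrotransposon genes 3 were called lower and 0 higher, below the shares of all genes, and the median of -0.09 was close to that of all genes. A near-identical copy exists for 89 of the 92, so reads could be split between copies. At the repeated CUP1 locus, the antisense transcripts RUF5-1 and RUF5-2 were among the 10 largest falls, as were YHR054W-A and YHR052W-A, with differences from -2.86 to -3.19 and BY4741 gaps of 0.92 to 1.06. CUP1-1 and CUP1-2, the metallothionein genes on the other strand, differed by 0.12 and 0.06 (named after their values were seen). The libraries are stranded, but whether the counting used the strand is not stated, so reads of these partners are uncertain.

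**Figure D4:**
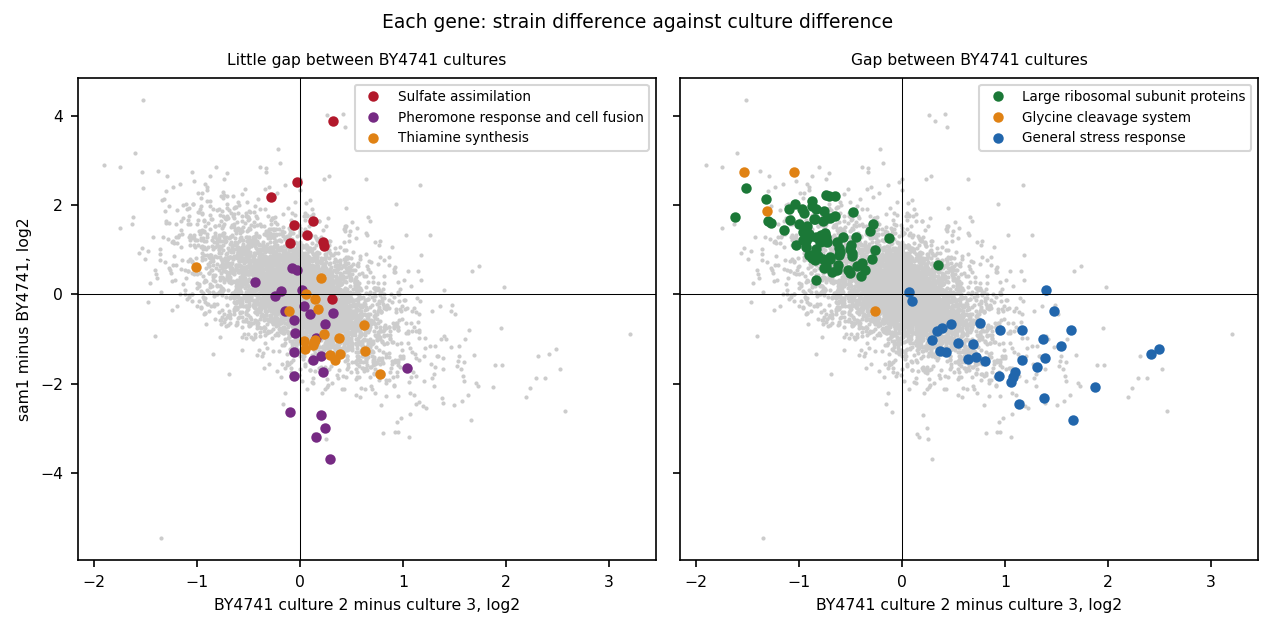
Each point is a gene, with BY4741 culture 2 minus culture 3 on the x axis and sam1 minus BY4741 on the y axis, both on log2(RPKM + 1). Both axes use the BY4741 cultures. On the left the coloured lists spread up or down near x = 0, as SUL2 at 3.89 and FIG1 at -3.70, and on the right the large ribosomal subunit genes lie at upper left and the stress genes at lower right.

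Ribosomal protein genes differed between the strains and between the BY4741 cultures as well. Genes for the proteins of the large ribosomal subunit had a median difference of 1.27. Both sam1 cultures lay above both BY4741 cultures in 75 of 81 genes, against 31.0% of all genes. The median gap between the BY4741 cultures was -0.76, with culture 3 higher in 80 of the 81. Against culture 2 alone the median was 1.63, and against culture 3 alone it was 0.87. The sam1 cultures also differed, by -0.64 (culture 1 minus culture 3). RPL3 had 497, 847, 1112 and 1563 RPKM in the sam1 libraries and 137, 166, 228 and 279 RPKM in the BY4741 libraries, so the groups were apart while each also had a wide spread. Despite these sizes, 14 of the 81 genes were called higher and 0 lower, against 8.0% and 8.29% of all genes. The small subunit gave the same picture, with a median of 1.26, a BY4741 gap of -0.80, and 9 of 56 genes called. RPS18B and RPS9B rose by 2.55 and 2.41, and RPS22B, which holds the small nucleolar RNA gene SNR44 on the same strand, had 205 and 702 RPKM in sam1 and 45.0 and 51.4 RPKM in BY4741.

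Ribosome biogenesis factors, which process ribosomal RNA and assemble the subunits, had a median of 1.01, with a BY4741 gap of -0.54. Of 106 genes 33 were called higher and 0 lower, against 8.0% and 8.29% of all genes. In 99 both sam1 cultures lay above both BY4741 cultures, against 31.0% of all genes. NSR1, the yeast nucleolin, had 172 and 223 RPKM in sam1 and 18.9 and 47.4 RPKM in BY4741, while RRB1 and UTP23 rose by 1.79 and 1.76. The gap of NSR1 between the BY4741 cultures was -1.29. Translation factors, by contrast, had a median of 0.21, and 17 of 29 had a larger gap between the BY4741 cultures than between the strains. CAM1, an elongation factor subunit, was the only translation factor called, with 280 and 228 RPKM in sam1 and 367 and 429 RPKM in BY4741.

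The promoter of NSR1 carries the PAC element GATGAG of ribosome biogenesis genes. It is given 5′ to 3′ on the minus strand of R64, chrVII:807607-807906, with the element in capitals as it reads on the other strand.
NSR1: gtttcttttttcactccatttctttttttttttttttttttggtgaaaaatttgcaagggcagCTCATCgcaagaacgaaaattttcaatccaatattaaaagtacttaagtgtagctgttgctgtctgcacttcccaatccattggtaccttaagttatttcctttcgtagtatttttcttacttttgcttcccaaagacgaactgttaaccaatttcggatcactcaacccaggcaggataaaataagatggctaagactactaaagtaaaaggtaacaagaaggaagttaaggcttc
GATGAG was found on either strand in 99 of 106 promoters of this list, against 20.4% of all 5990 promoters.

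The glycine cleavage system had the highest median of all lists. This mitochondrial enzyme complex breaks glycine down to a one-carbon unit carried by folate. GCV1 measured 241, 241, 393 and 379 RPKM in the sam1 libraries, against 27.6, 23.9, 80.9 and 71.8 RPKM in BY4741. GCV2 and GCV3 rose by 2.74 and 1.87. In each of the 3 genes all sam1 cultures exceeded all BY4741 cultures, yet BY4741 culture 3 was also above culture 2, with gaps of -1.53, -1.05 and -1.31 for GCV1, GCV2 and GCV3. LPD1, the subunit that the complex shares with other dehydrogenases, was not called (-0.38). The median over the 4 genes was 2.31, or 2.90 against BY4741 culture 2 and 1.60 against culture 3. GCV1 was also high in shm2, with 363 and 388 RPKM, and not in ser33, with 37.4 and 33.9 RPKM.

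GCV2 is shown as an example of the element TGACTC, known for Gcn4 and Bas1, in these promoters. Its window is chrXIII:637250-637549 on the plus strand of R64, and the capitals mark the match, which reads GAGTCA on this strand.
GCV2: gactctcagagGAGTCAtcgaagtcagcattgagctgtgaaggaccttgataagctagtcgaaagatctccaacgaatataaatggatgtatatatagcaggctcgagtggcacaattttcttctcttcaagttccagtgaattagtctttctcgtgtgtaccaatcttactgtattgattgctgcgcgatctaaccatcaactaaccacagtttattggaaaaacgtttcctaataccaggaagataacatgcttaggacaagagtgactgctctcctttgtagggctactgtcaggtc
TGACTC was found on either strand in 4 of 4 promoters of the glycine cleavage list and in 7 of 14 of the purine list, against 8.0% of all promoters.

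Pathways linked to the one-carbon pool rose in part. SHM2, the cytosolic serine hydroxymethyltransferase, had 639 and 1170 RPKM in sam1 and 125 and 317 RPKM in BY4741 (2.11, adjusted p = 0.0445), and FOL1, of folate synthesis, rose by 1.22. Of 14 folate enzymes 2 were called higher and 0 lower, with a median of 0.32. In de novo purine synthesis 6 of 14 genes were called higher and 0 lower, with a median of 0.70 and a BY4741 gap of -0.59. ADE17, which closes the purine ring, had 316 and 686 RPKM in sam1 and 34.2 and 117 RPKM in BY4741, while ADE1 and ADE4 rose by 2.36 and 1.92 with smaller BY4741 gaps of -0.34 each. IMD2, IMD4 and GUA1, of the branch to GMP, overlapped between the strains (named after their values were seen). Among 11 genes of serine and threonine synthesis 3 were called higher and 1 lower. SER33 measured 75.2 and 151 RPKM in sam1 and 28.9 and 35.0 RPKM in BY4741, and GLY1, the threonine aldolase that makes glycine, and HOM3, the aspartate kinase, rose by 1.43 and 1.04. SER3, whose product does the same step as Ser33, fell to 30.9 and 51.6 RPKM in sam1, against 393 and 199 RPKM in BY4741. SRG1, the noncoding transcript that runs through the SER3 promoter and overlaps the gene on the same strand, had a difference of 0.00, and reads of the overlap cannot be told apart. The subunits of SESAME itself were thus mixed: SAM2, SHM2 and SER33 were called higher, SAM1 lower, and CDC19, the pyruvate kinase, and ACS2 were not called (-0.50 and -0.43).

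Genes that peak at the end of the cell cycle were higher. Of 21 genes of the G2 phase and mitosis 10 were called higher and 0 lower, against 8.0% and 8.29% of all genes. Their median was 0.80, with a BY4741 gap of -0.43. The largest were genes for the separation of daughter cells: EGT2 had 133 and 183 RPKM in sam1 and 17.4 and 33.2 RPKM in BY4741, SCW11 had 137 and 208 RPKM against 20.5 and 35.2 RPKM, and DSE1 rose by 2.48. The chitinase CTS1 rose by 0.92 with a BY4741 gap of -0.12, and the repressor ASH1 of daughter cells by 1.68 (both named after their values were seen). Among 28 genes of the G1 phase and DNA replication only CLN1, a G1 cyclin, was called (1.59). Their median was 0.43, with a BY4741 gap of -0.48, and for 14 the gap was larger than the difference between the strains. In 15 of the 28 both sam1 cultures lay above both BY4741 cultures and in 3 below, against 31.0% and 35.0% of all genes.

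Ergosterol and iron genes were called higher more often than the 8.0% of all genes, and fatty acid and phosphate genes at about that share. Of 22 ergosterol genes 5 were called higher and 0 lower, with a median of 0.50 and a BY4741 gap of -0.38, and ERG3, ERG4 and ERG2 rose by 1.72, 1.82 and 1.8. ACC1, the acetyl-CoA carboxylase, was the gene called among 12 of fatty acid synthesis (0.91). In the iron regulon 10 of 24 genes were called higher and 0 lower. The median gap between the BY4741 cultures was only -0.12, but the members that rose most had larger gaps: FRE1, a ferric reductase, had 100 and 154 RPKM in sam1 and 21.6 and 43.1 RPKM in BY4741, a gap of -0.96, and FTR1, the iron permease, and FRE5 had gaps of -0.99 and -0.62. PHO84, the high-affinity phosphate transporter, was the largest rise of the table, with 254, 357, 362 and 537 RPKM in the sam1 libraries and 8.13, 10.9, 24.8 and 33.6 RPKM in BY4741 (4.37 ± 0.91 SE, adjusted p = 0.0420). Its BY4741 gap was -1.52, and shm2 held 269 and 41.5 RPKM in its 2 cultures. The phosphate regulon as a whole did not follow: 2 of 20 genes were called higher and 1 lower, with a median of 0.22. PHO5, the secreted phosphatase of this regulon, had 34.8 and 32.1 RPKM in sam1 and 29.4 and 30.2 RPKM in BY4741 and was not called (0.16, adjusted p = 0.774, named after its values were seen).

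The median of the stress genes was lower in sam1, but few members passed the test and the BY4741 cultures differed too. The general stress response of yeast is the set of genes that Msn2 and Msn4 induce when growth slows. Its 34 genes had a median difference of -1.24, and their median gap between the BY4741 cultures was 1.07, with culture 2 higher in 34 of 34. Only 4 of the 34 were called lower and 0 higher, against 8.29% of all genes called lower, and for 11 the gap between the BY4741 cultures was larger than the difference between the strains. SOL4 had 60.1 and 32.7 RPKM in sam1 and 369 and 168 RPKM in BY4741, and GRX1, a glutaredoxin, and CRG1 were lower by -1.44 and -1.29. HSP12, a membrane-bound stress protein, had 731 and 625 RPKM in sam1 and 2563 and 879 RPKM in BY4741 and was not called (named after its values were seen).

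Heat shock chaperones had a median of -1.21 with a smaller BY4741 gap of 0.53. Of 24 genes 11 were called lower and 0 higher, against 8.29% and 8.0% of all genes. SSA4, an inducible Hsp70, measured 95.2, 89.0, 48.0 and 54.2 RPKM in the sam1 libraries and 615, 682, 297 and 322 RPKM in BY4741. HSP42, a small heat shock protein, and BTN2 fell by 2.48 and 2.47. HSP82 and HSC82, the Hsp90 genes, were lower by -1.88 and -1.56, and the gap of HSC82 between the BY4741 cultures ran the other way at -0.17 (named after their values were seen). The chaperone genes SSA1, SSA2, SSC1 and YDJ1 were not called, with differences from -0.50 to 0.05.

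The promoter of HSP42 holds 3 copies of AGGGG, the stress element known for Msn2 and Msn4, in capitals below, at chrIV:806371-806670 on the plus strand of R64.
HSP42: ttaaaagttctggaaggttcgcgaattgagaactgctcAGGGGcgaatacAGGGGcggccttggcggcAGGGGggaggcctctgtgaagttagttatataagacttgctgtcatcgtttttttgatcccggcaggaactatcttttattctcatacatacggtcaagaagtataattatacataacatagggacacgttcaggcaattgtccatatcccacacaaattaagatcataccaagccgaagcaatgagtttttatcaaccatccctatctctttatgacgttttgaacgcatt
AGGGG was found on either strand in 23 of 34 promoters of the general stress list and in 8 of 24 of the heat shock list, against 21.7% of all 5990 promoters.

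**Figure D5:**
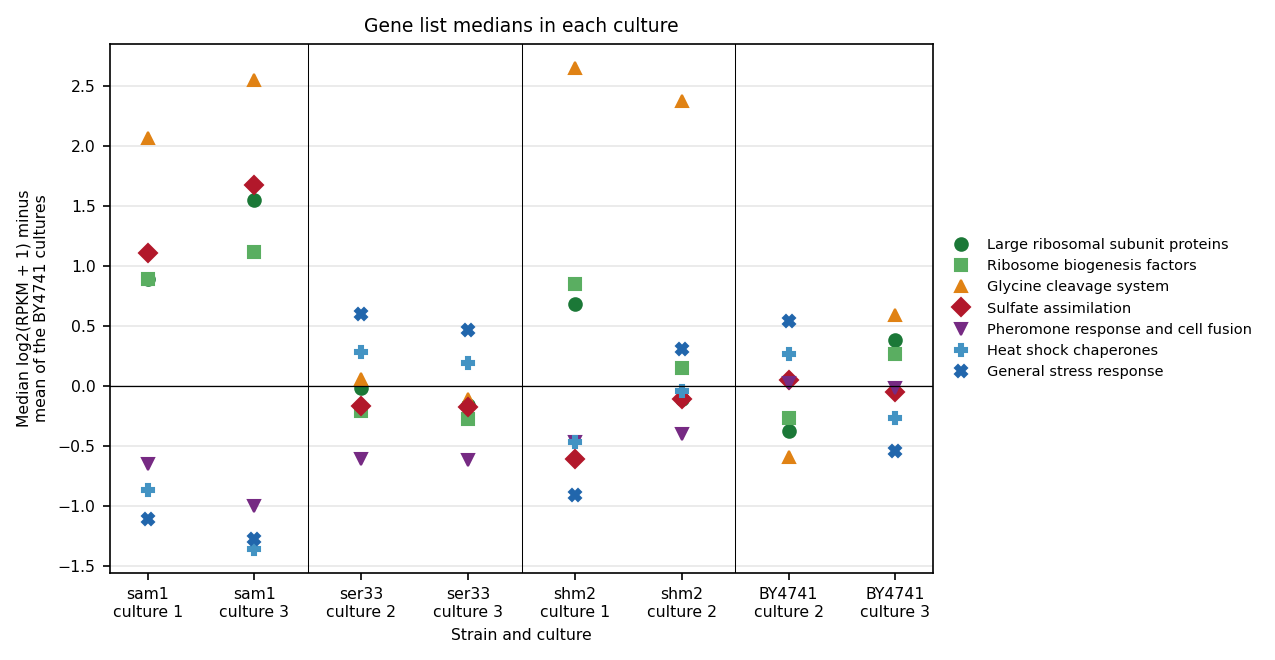
Median of 7 gene lists in each culture on log2(RPKM + 1), relative to the mean of the BY4741 cultures, with the strains separated by vertical lines. The large ribosomal subunit list is at 0.89 and 1.55 in sam1, 0.68 and -0.11 in shm2, and -0.38 and 0.38 in BY4741, and the stress list mirrors it at -1.11 and -1.28, -0.91 and 0.31, and 0.54 and -0.54.

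The shm2 cultures were about as far apart on these lists as the BY4741 cultures. Large ribosomal subunit genes had a median, relative to BY4741, of 0.68 in shm2 culture 1 and -0.11 in culture 2, and general stress genes of -0.91 and 0.31. Relative to the BY4741 mean, the BY4741 cultures stood at -0.38 and 0.38, and at 0.54 and -0.54. In ser33 both cultures were close, at -0.02 and -0.16 for the ribosomal genes and 0.60 and 0.47 for the stress genes. These spreads enter the error of the test. Leaving shm2 out of the model gave 1681 calls in place of 1161, and leaving ser33 out gave 4.

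Storage and respiration lists had medians below 0, with most members not called, against 8.29% of all genes called lower. Trehalose and glycogen metabolism had a median of -0.89 with a BY4741 gap of 0.57, and 3 of 20 genes were called lower: TPS3, UGP1 and NTH1, the last with 168 and 121 RPKM in sam1 and 259 and 261 RPKM in BY4741. The tricarboxylic acid cycle had a median of -0.68 with a gap of 0.31, and 5 of 17 genes were called lower, among them IDP1, KGD2 and SDH4 at -1.30, -1.14 and -1.02. IDP1, a mitochondrial isocitrate dehydrogenase, had a BY4741 gap of -0.04. Nuclear genes of oxidative phosphorylation had a median of -0.47, which is smaller than their gap of 0.51, and 5 of 36 were called lower. CYC7, a cytochrome c isoform, had 44.6 and 28.1 RPKM in sam1 and 305 and 133 RPKM in BY4741, and COX13 and QCR2 were lower by -1.24 and -1.08. In gluconeogenesis and the glyoxylate cycle 2 of 12 genes were called lower: the activator CAT8 and PCK1, which had 1.71 and 2.14 RPKM in sam1 and 4.38 and 4.16 RPKM in BY4741. Glycolysis had 0 of 17 genes called by limma, and 2 of them had an unadjusted p under 0.05. FBA1 had 8029 and 6966 RPKM in sam1 and 5936 and 8518 RPKM in BY4741, and TDH3 and CDC19 differed by -0.26 and -0.50.

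Autophagy and silencing genes, which the SESAME complex is studied for, were examined for this mutant. Of 34 autophagy genes 6 were called lower and 0 higher, against 8.29% and 8.0% of all genes. Their median was -0.58, and BY4741 culture 2 was above culture 3 in all 34, with a median gap of 0.31. ATG8, the protein that coats the autophagosome, had 41.9 and 31.8 RPKM in sam1 and 132 and 84.6 RPKM in BY4741 (-1.52, adjusted p = 0.0457). ATG33 and ATG29 were lower by -1.38 and -1.65, and ATG29 overlaps SET6 on the other strand. Among 14 silencing factors and sirtuins only SAS2, a histone acetyltransferase of silent chromatin, was called, with 17.1 RPKM in both sam1 cultures and 9.62 and 8.87 RPKM in BY4741. SIR2, the deacetylase of silent chromatin, had 11.6 and 14.8 RPKM in sam1 and 12.8 and 14.0 RPKM in BY4741, and SIR3 and SIR4 differed by -0.12 and -0.16 (named after their values were seen). Of 260 genes within 20 kb of a chromosome end 7 were called higher and 41 lower, against 8.0% and 8.29% of all genes. Their median was -0.23, with a BY4741 gap of 0.08. ERR1 and ERR2, near-identical genes related to enolase, and YEL073C were the lowest of those called, between -1.77 and -1.81. Of the 260 genes 117 have a near-identical copy. MMP1, ARN1 and FET4, transporters that lie near chromosome ends, were the highest of those called, at 1.91, 1.56 and 1.55.

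Transcripts often used as references were compared last. ACT1, actin, had 1451 and 1235 RPKM in sam1 and 1104 and 1713 RPKM in BY4741 and was not called. Of 33 proteasome genes 0 were called by limma and 5 had an unadjusted p under 0.05, with a median of -0.11 and a BY4741 gap of 0.00, and RPN1, RPN2 and RPN8 differed by -0.54, -0.58 and 0.15.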

How the data were processed

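Total RNA from the sam1, BY4741, ser33 and shm2 cultures was sequenced as stranded libraries after ribosomal RNA removal. RPKM values per gene were deposited by the authors in 1 table. The submitters' processing notes name CASAVA 1.8.2, TopHat2 2.0.13, edgeR and the genome build sacCer3. The counting step, the annotation and the use of strand in counting are not given in the sources used here. RPKM is scaled to the library total, so a large change in a few abundant genes shifts all others. Another 32 columns of the table hold no values and were not used.

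Values were averaged over the 2 libraries of a culture on log2(RPKM + 1) and tested with limma 3.58.1 (R 4.3.3, trend) in 1 model of 4 strains with 4 residual degrees of freedom, with Benjamini-Hochberg adjustment over 7125 genes and a threshold of 0.05. Because the values are RPKM, no count test was run. On simulated data 200 of 200 genes changed by 2 on the log2 scale were recovered and 13 unchanged genes were called. Recovery of smaller changes, such as the median absolute difference of 0.39 between the strains, was not tested. Recovery at a wide spread between cultures, such as the SE of 0.91 for PHO84, was not tested either. The same holds for deviations shared by many genes, such as the correlation of 0.685 between BY4741 and shm2 at culture number 2. The remaining steps used Python 3.11.15 with pandas (2.3.3), matplotlib (3.10.9) and numpy (2.4.6). Of the 7125 genes, 6169 matched the RefSeq R64 annotation, from which 5990 promoter windows of 300 bases were read. Transcripts with a match of at least 95% identity over 80% of their length (BLAST+ 2.17.0) are called near-identical.

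The comparison and the gene lists were chosen with earlier results of these data known. Named genes were the methyl cycle, the deleted markers and the neighbours of SAM1, the 10 largest rises and 10 largest falls among called genes with non-overlapping cultures and a strain mean of at least 10 RPKM, and up to 3 called genes per direction and list, or, in a list without a call, the 3 with the highest mean. Other genes were named after their values were seen. Alternatives changed the pseudocount, the library of a culture, a minimum of 1 RPKM, the strains in the model, the scaling (median of ratios, ACT1), the replicate number as a block and each culture left out.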

Additional observations from a re-analysis of the deposited data

How the results depend on the processing

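The direction of the 186 called genes that the naming rule or the text names, beside SAM1, was the same under every alternative run, while their calls were not. For part of the alternatives the direction could not change. Leaving ser33, shm2 or both out of the model does not alter the difference between sam1 and BY4741. All 1161 called genes had non-overlapping cultures, so leaving out 1 culture could not reverse a sign either. With the first or the second library of each culture only, 330 (143 higher, 187 lower) or 424 (214 higher, 210 lower) genes were called, against 1161. A minimum mean of 1 RPKM gave 1623, of which 863 were higher. A total of 0 genes were called with BY4741 and sam1 alone in the limma model, 4 (1 higher, 3 lower) without ser33 and 2 (1 higher, 1 lower) relative to ACT1, and leaving out shm2 gave 1681. The cause of these changes was not tested. Leaving out 1 culture gave 0 to 885 calls, 0 to 528 higher and 0 to 357 lower. Only the fit without sam1 culture 1 made calls, 59.7% of them higher against 49.1%. The fits without BY4741 culture 2, BY4741 culture 3 and sam1 culture 3 made 0 calls, with 1620, 2733 and 1853 genes at an unadjusted p under 0.05. SAM1 was at -5.47 with an adjusted p of 0.0932 with BY4741 and sam1 only and of 0.0950 without ser33, and lay between -6.15 and -4.80 without 1 culture. With the replicate number as a block (the replicate block), 0 genes were called, 1829 had an unadjusted p under 0.05, and SAM1 was at -5.83 (adjusted p = 0.107). sam1 and BY4741 share only culture number 3, and the correlation of their deviations from the strain means at that number was 0.0264. The numbers were therefore not taken to pair the cultures of these strains. Between other strains of the model the correlation at a shared number varied. It was 0.685 for BY4741 and shm2 at number 2, -0.17 for BY4741 and ser33, and -0.204 for sam1 and shm2 at number 1. Whether a number marks a shared batch was not tested. Requiring all 4 sam1 libraries beyond all 4 BY4741 libraries left 3005 genes, against 4708 by cultures. List medians moved by more than the spread of the cultures in 87 of 882 cases. With 2 cultures a strain, differences near the gap between the BY4741 cultures cannot be resolved.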

Other observations

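Part of the genes for the use of poor nitrogen sources were lower in sam1. Of 34 genes of nitrogen catabolism and amino acid uptake, 11 were called lower and 3 higher, against 8.29% and 8.0% of all genes. Their median was -0.34, with a BY4741 gap of 0.18. GAP1, the general amino acid permease, had 31.3 and 13.9 RPKM in sam1 and 112 and 125 RPKM in BY4741 (-2.45, limma adjusted p = 0.0364). DAL3, of allantoin breakdown, had 4.67 and 3.91 RPKM in sam1 and 22.0 and 14.7 RPKM in BY4741, and CAR1, the arginase, had 55.4 and 43.7 RPKM in sam1 and 225 and 131 RPKM in BY4741. The 3 genes called higher were permeases of single or few amino acids: BAP3 had 90.9 and 140 RPKM in sam1 and 40.0 and 49.9 RPKM in BY4741, and TAT2 and GNP1 rose by 0.87 and 1.00. Zinc genes went both ways, with 3 of 10 called higher and 2 lower. IZH1, a membrane protein of zinc homeostasis, had 60.9 and 88.1 RPKM in sam1 and 19.4 and 20.6 RPKM in BY4741, while ZPS1 had 2.42 and 2.48 RPKM in sam1 and 6.68 and 6.11 RPKM in BY4741.

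Meiosis and sporulation genes, which growing haploid cells keep off, were read at low levels. Of 20 genes 9 were called lower and 0 higher, against 8.29% and 8.0% of all genes. Their median was -0.59, with a BY4741 gap of 0.24. SPR28, a septin of sporulation, had 0.136 and 0.359 RPKM in sam1 and 7.42 and 3.36 RPKM in BY4741, and DIT1, of the spore wall, had 0.814 and 0.950 RPKM in sam1 and 5.74 and 2.98 RPKM in BY4741. Among genes of the cell wall GAS1, a glucan-remodelling enzyme, had 1000 and 1161 RPKM in sam1 and 215 and 326 RPKM in BY4741. Of 10 histone genes 0 were called higher and 1 lower. That gene was HTB1, an H2B gene, with 468 and 488 RPKM in sam1 and 847 and 892 RPKM in BY4741. HTB1 went against most of its list, which had a median of 0.55 and a BY4741 gap of -0.06. In 6 of the 10 both sam1 cultures lay above both BY4741 cultures and in 3 below, against 31.0% and 35.0% of all genes. Among 16 histone methylation factors, which use SAM or assist enzymes that do, 2 were called higher and 0 lower. BRE1 and DOT1 rose by 0.51 and 0.45, in a list with a median of 0.04 and a BY4741 gap of 0.06. CHO1 and CHO2 of phospholipid synthesis, the second of which uses SAM, rose by 0.49 and 0.90. Of 17 genes of that list 3 were called higher and 0 lower, with a median of -0.03 and a BY4741 gap of 0.04. SPE3, the spermidine synthase, which uses decarboxylated SAM, fell to 129 and 114 RPKM in sam1, against 194 and 288 RPKM in BY4741. Of 10 genes of polyamine synthesis 0 were called higher and 2 lower, with a median of -0.02 and a BY4741 gap of -0.13.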
